A study of Mus musculus with 9 samples.

Results

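Primary mouse articular chondrocytes that had been given bleomycin and then ST045849, an inhibitor of O-GlcNAc transferase, were compared with chondrocytes given vehicle alone. The comparison took the 3 libraries of each group, 6 of the 9 in the series, and every gene with at least 1 FPKM (fragments per kilobase of exon and scaled to sequencing depth) in at least 3 of those 6. This left 12019 of the 55450 listed genes, of which 452 reached 1 FPKM in exactly 3 libraries, while 478 genes that reached it in exactly 2 were left out. All cells were kept at 3% oxygen in DMEM with 10% serum, penicillin and streptomycin, and all received hyaluronidase type I-S at 4 U/mL for 4 h without serum. The bleomycin plus ST045849 cells then received bleomycin at 50 μg/mL for 24 h, were washed, and were kept for 5 days with 20 μM ST045849 in medium renewed every 48 h. The vehicle cells received PBS for 24 h and DMSO for 5 days on the same schedule. Bleomycin followed by DMSO, the other group of the series, entered the model for its estimate of the spread. Its values are set beside some results, and its comparison with vehicle shares the vehicle libraries. A difference from vehicle holds both treatments. The difference from bleomycin followed by DMSO is that of the inhibitor in cells that had received bleomycin. Cells given ST045849 without bleomycin were not analysed here, so the effect of the inhibitor without bleomycin is not known. The labels give no strain or age, and whether separate animals or cultures stand behind the 3 libraries per group is not stated. The p-values therefore measure the spread between these libraries, which may be technical.

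Bleomycin is a glycopeptide that breaks DNA, and lasting DNA damage can drive cells into senescence, an arrest held by p53 and by inhibitors of cyclin-dependent kinases in which many cells also release proteases, growth factors and cytokines. O-GlcNAc transferase, encoded by Ogt, attaches single N-acetylglucosamine residues to serine and threonine of nuclear and cytoplasmic proteins, and the hydrolase encoded by Oga removes them. Chondrocytes build joint cartilage from type II collagen and aggrecan, a proteoglycan whose chondroitin sulfate chains hold water. The series asked what O-GlcNAcylation does while chondrocytes become senescent.

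Against vehicle, 1202 of the 12019 genes (10.0%) changed, 990 upward (8.24%) and 212 downward (1.76%), by limma with Benjamini-Hochberg adjusted p under 0.05 on the log2(FPKM + 1) scale. All fold changes below are log2 differences on that scale with their standard error (n = 3 per group); the added 1 makes changes of weakly expressed genes look smaller. Changes of at least 2-fold numbered 518 upward (4.31%) and 122 downward (1.02%). Groups did not overlap for 2494 genes that were higher (20.8%) and 801 that were lower (6.66%). The median difference of all tested genes was 0.19, and 65.2% of genes were above 0. Rescaling moved this median to -0.01 (median-of-ratios scaling), 0.02 (quantile normalization) or -0.03 (conversion to TPM), and the calls split into 480 upward and 400 downward, 549 and 342, and 493 and 221. Of the genes that changed, 144 were at 1 FPKM or more in all 3 bleomycin plus ST045849 libraries and in no vehicle library, out of 194 such genes tested. The reverse pattern held for 39 genes, of which 12 changed. Such genes could pass the filter only through the group in which they were high. In the same fit 530 genes (4.41%) changed between bleomycin and vehicle. Of the 1202 genes, 408 were among them and 794 were not, in comparisons that share the vehicle libraries. Between bleomycin plus ST045849 and bleomycin 1 gene (0.00832%), Angptl4, changed (adjusted p = 0.0484, limma). At an unadjusted p under 0.05, the last comparison had 2721 genes. These are bulk samples, in which fewer cells of a type and less RNA per cell cannot be told apart.

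The difference from vehicle varied with gene length, and the libraries of a group differed in this respect. Genes that rose had a median exon length of 2851 bases and genes that fell 6872 bases, against 4255 for all tested genes. In the shortest of 10 length bins (median 796 bases) the median difference was 0.461, and in the longest (median 12203.5 bases) it was -0.284. The slope of each library's log2 values on log2 exon length was -0.0778, 0.1113 and 0.0812 in vehicle libraries 1 to 3 and 0.0166, -0.2272 and -0.1512 in bleomycin plus ST045849 libraries 1 to 3. Libraries 2 and 3 of the treated group had the lowest slopes of the 9, vehicle library 1 came next, and the other 6 lay between 0.0166 and 0.1113. The same 2 treated libraries lay at one end of the first principal component (46.3% of variance). Col2a1, the defining collagen gene of chondrocytes, made up 4.48 to 7.07% of all FPKM in the vehicle and 2.02 to 3.74% in the treated libraries, and all 8 chondrocyte markers checked passed the filter. FPKM summed to 340303 to 483953 per library, and steps between low FPKM values put the relative depth at 0.875 to 1.005 of vehicle library 1. In that estimate 25.9 to 28.6% of low values fell on whole steps, against 4% by chance. Steps outside a preset range were not searched, so the relative depth is approximate. The number of genes called was 146 without treated libraries 2 and 3, a fit in which the lone treated library is assumed to vary like the other groups. It was 621 without library 2 and 588 without library 3, but 3009 without library 1. It was 1867 without vehicle library 1, 317 without vehicle library 2 and 350 without vehicle library 3. After removal of each library's length trend 792 genes changed, 467 upward and 325 downward, and 595 of these changed in the same direction without that step. Counts of the lists below are set against 8.24% of all tested genes rising and 1.76% falling. They are also given after removal of the length trend, except for lists in which no member passed with or without that step. What part the length difference had in any single gene was not tested.

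**Figure D1:**
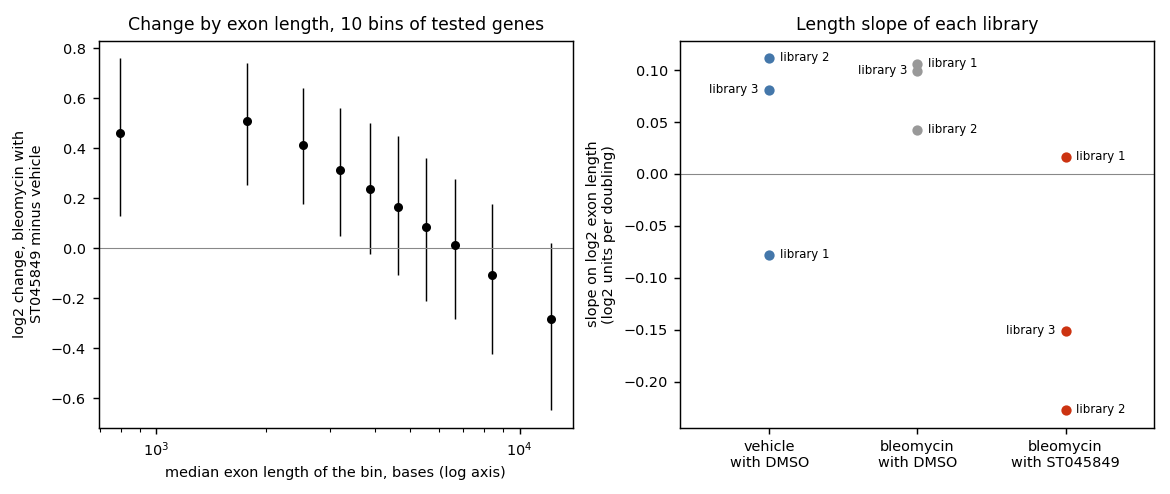
Left, median log2 difference in FPKM + 1 between bleomycin plus ST045849 and vehicle (points, with bars from the first to the third quartile) in 10 bins of tested genes against the median exon length of the bin in bases, on a log axis. Right, slope of each of the 9 libraries on log2 exon length. The median falls from 0.461 in the shortest bin to -0.284 in the longest, and treated libraries 2 and 3 have the lowest slopes, at -0.2272 and -0.1512.

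The 12 largest rises included genes of interferon response, oxidative stress, lipid metabolism and matrix breakdown. Isg15, a ubiquitin-like modifier induced by interferon (chromosome 4, 156199424 to 156200818 in GRCm38), stood at 1.3, 1.3 and 0.43 FPKM in vehicle libraries 1 to 3 and 36.2, 132 and 24.6 FPKM in bleomycin plus ST045849 libraries 1 to 3, and rose by 4.68 ± 0.63 (adjusted p = 0.00231). Hmox1, heme oxygenase 1 (chromosome 8, 75093621 to 75100589), stood at 65.2, 24.5 and 34.1 FPKM in vehicle and 243, 1002 and 737 FPKM in treated libraries, and rose by 3.86 ± 0.50 (adjusted p = 0.00202). Treated library 2 was the highest for both genes. The lowest treated library lay above the highest vehicle library, as the selection of these rises required. Angptl4, a secreted inhibitor of lipoprotein lipase (chromosome 17, 33773750 to 33781830), went from 7.2, 4.13 and 5.65 to 54.2, 108 and 50.8 FPKM and rose by 3.37 ± 0.31 (adjusted p = 0.00088). Its difference from bleomycin alone was 2.64 ± 0.31. The stromelysin gene Mmp3 (chromosome 9, 7445822 to 7455975) went from 1.4, 0.634 and 0.416 to 29.98, 8.39 and 9.04 FPKM and rose by 3.01 ± 0.52 (adjusted p = 0.0066). In bleomycin libraries Mmp3 stood at 47.2, 17 and 12.2 FPKM, and library 1 was the highest in both bleomycin-treated groups. Also among these 12 were the tetherin gene Bst2 (3.14), the glutathione transferase gene Gsta4 (3.02), Gdf15, a stress-induced cytokine (2.78), Sncg, which encodes gamma-synuclein (2.76), Lgals3bp, a secreted galectin ligand (2.74), and the histone H4 gene H4c8 (2.68). Msmp (5.01) lay fully within exons of Rgp1 on the opposite strand, and Pcdhgb4 (3.07) shared 38.3% of its exon sequence with Pcdhga8 of the same protocadherin cluster. How counting treated strand and shared exons is not stated, so the values of these 2 genes, and of other genes with overlaps named below, are uncertain. These 12 genes changed in each of the 9 fits that left out 1 library, and with the length trend removed. Bst2, Pcdhgb4 and Gdf15 lost their calls when no filter was used. With each library's length slope as a covariate Bst2 and Gdf15 lost theirs (adjusted p = 0.1145 and 0.0552, limma). Gdf15 also lost its call in the 6 libraries alone with replicate number as a block.

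The 12 largest falls, of which 11 are reported here, held several genes of cartilage and its matrix. Smpd3, a neutral sphingomyelinase that skeletal cells need for mineralization, stood at 60.6, 123 and 96.6 FPKM in vehicle and 28.6, 13.7 and 10.9 FPKM in treated libraries (-2.39 ± 0.37, adjusted p = 0.00426). In bleomycin libraries it stood at 72.1, 101 and 58.5 FPKM, within or just under the vehicle range. The difference of treated from bleomycin libraries, -2.14 ± 0.37, did not pass (adjusted p = 0.203, limma). Papss2, which makes the sulfate donor for chondroitin chains, went from 185, 299 and 255 to 92.1, 37.8 and 35.9 FPKM (-2.25 ± 0.34, adjusted p = 0.00392), and Matn3, the matrilin of cartilage matrix, from 108, 184 and 157 to 65.5, 24.5 and 43.9 FPKM (-1.80 ± 0.33, adjusted p = 0.00926). For all 3 genes every treated library lay below every vehicle library, as the selection of these falls required. The long noncoding RNA gene Gm13293 fell by 1.74 ± 0.25 (adjusted p = 0.00318), from a vehicle level of 5.58, 8.13 and 10.3 FPKM. The rest were Nrk, a protein kinase gene (-3.22), the imprinted zinc finger genes Zim1 (-2.89) and Peg3 (-1.81), the splicing regulator Mbnl1 (-2.07), the lysophosphatidic acid receptor Lpar4 (-2.05), the adhesion protein gene Lpp (-1.80) and 4932438A13Rik (-1.74). Smpd3, Papss2 and Gm13293 changed in every fit with 1 library left out. Matn3 lost its call without vehicle library 2 (adjusted p = 0.0515), Lpp without vehicle library 2 or 3 (adjusted p up to 0.0628), and the other 6 without vehicle library 2 or 3 or treated library 2 or 3, with Lpar4 and Peg3 also lost without bleomycin library 3. Their highest adjusted p was 0.0779 for Nrk, 0.0936 for Zim1, 0.127 for Mbnl1, 0.139 for Lpar4, 0.159 for Peg3 and 0.0958 for 4932438A13Rik. Exons of Lpp are 22046 bases long in all, and its adjusted p was 0.068 with the length trend removed. Exons of 4932438A13Rik (32279 bases), Mbnl1 (18717), Peg3 (13324), Nrk (9210), Zim1 (8086) and Smpd3 (5232) also exceeded the median of 4255 bases. All falls reported here but Lpp kept their calls with the trend removed, 4932438A13Rik at -0.9985. With the length slope as a covariate, Nrk, Smpd3, Papss2 and Gm13293 kept their calls. Lpp, Zim1, Mbnl1, Lpar4, Peg3, Matn3 and 4932438A13Rik lost theirs (adjusted p = 0.0589 to 0.4118, limma).

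**Figure D2:**
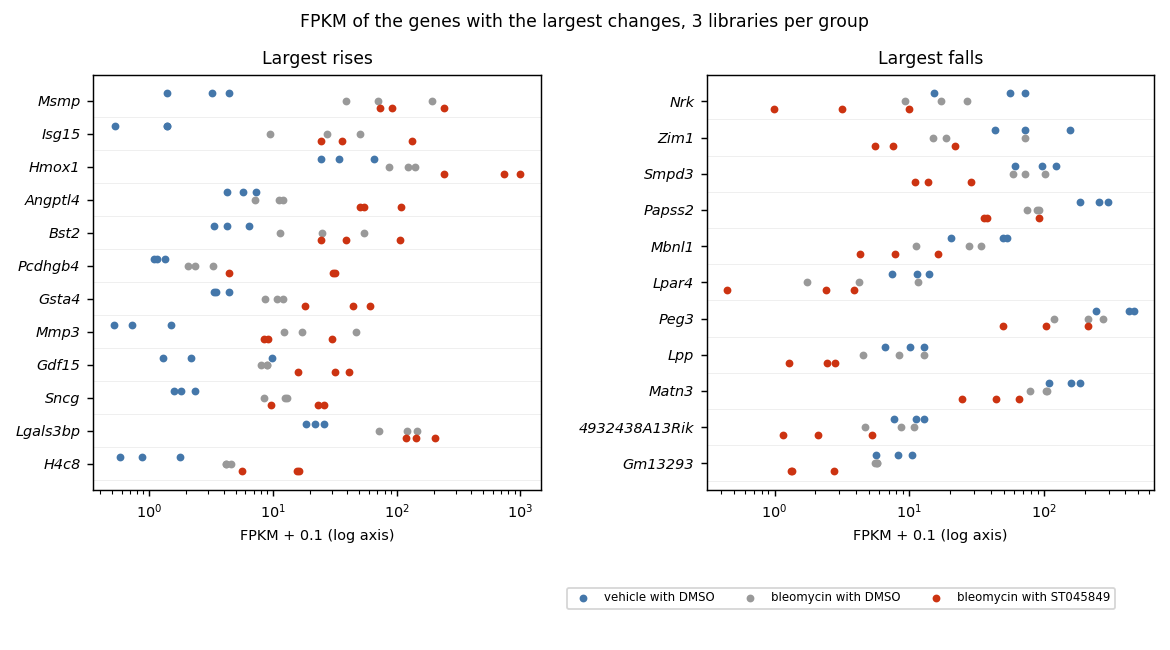
FPKM (with 0.1 added, log axis) of the 12 genes with the largest rises (left) and 11 of the 12 with the largest falls (right). Each point is 1 library, with 3 libraries per group: vehicle (blue), bleomycin (grey) and bleomycin plus ST045849 (red). Red and blue points do not overlap for any of the genes shown, as the selection required.

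Genes of the enzyme that ST045849 inhibits and of its sugar supply moved both ways. Ogt stood at 28.1, 48.9 and 48.7 FPKM in vehicle, 42.7, 29.3 and 38.8 in bleomycin and 23.4, 10.3 and 22.3 in bleomycin plus ST045849 libraries 1 to 3, and fell by 1.16 ± 0.33 (adjusted p = 0.0464, limma). Every treated library lay below every vehicle library. The call was lost without any one vehicle or treated library other than vehicle library 1 and treated library 1, and without any one bleomycin library (adjusted p up to 0.178). Oga stood at 17.7, 22.8 and 24 FPKM in vehicle and 21.6, 14 and 27.2 FPKM in treated libraries (-0.07 ± 0.24, adjusted p = 0.858), and the groups overlapped. Of 14 tested genes of O-GlcNAc and hexosamine metabolism, 2 rose (14.3%, against 8.24% of all genes) and 2 fell (14.3%, against 1.76%). The list median was 0.05 against 0.19 for all genes. Gfpt2, which makes glucosamine 6-phosphate at the entry of the hexosamine pathway, fell by 0.91 ± 0.18 (adjusted p = 0.013), from 39.4, 35.6 and 44.5 to 24.1, 19.9 and 18.1 FPKM. Uap1l1, a relative of the enzyme that makes UDP-N-acetylglucosamine, rose by 1.19 ± 0.29 (adjusted p = 0.0278), and Renbp, an epimerase of N-acetylglucosamine, by 1.05 ± 0.26 (adjusted p = 0.0308). Gfpt2 lost its call without vehicle library 3 (adjusted p = 0.0734), and Uap1l1 and Renbp without vehicle library 2 or 3 or treated library 2 or 3 (adjusted p up to 0.126 and 0.142). With the length trend removed, Gfpt2 and Ogt were the members that changed. No member rose under median-of-ratios scaling or quantile normalization, or without vehicle library 2 or 3 or treated library 2 or 3. The falls numbered 0 without vehicle library 3. They numbered 1 without vehicle library 2, treated library 2 or 3, or any one bleomycin library. With each library's length slope as a covariate none of the list changed.

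Among genes of the p53 response, 15 of 29 tested rose and none fell, with a median of 0.84 (background 8.24% of genes rising, median 0.19). The list median for bleomycin against the same vehicle libraries was 0.63. Cdkn1a, which encodes the cyclin-dependent kinase inhibitor p21 (chromosome 17, 29090976 to 29100727), stood at 158, 111 and 151 FPKM in vehicle and 299, 534 and 442 FPKM in treated libraries and rose by 1.57 ± 0.28 (adjusted p = 0.0068). Every treated library was higher than every vehicle library, and bleomycin libraries lay at 243, 331 and 364 FPKM. Perp, a p53 target of cell junctions, went from 3.58, 3.04 and 4.26 to 14.3, 21.3 and 32.9 FPKM (2.30 ± 0.31, adjusted p = 0.00223). Phlda3, a repressor of Akt, rose by 2.14 ± 0.32 (adjusted p = 0.00386) and Psrc1, a microtubule-associated protein, by 1.66 ± 0.21 (adjusted p = 0.00202). Gdf15, also in this list, was at 9.71, 2.08 and 1.19 FPKM in vehicle libraries. Its vehicle library 1 lay above the other 2 and above no treated library, the latter as its selection required. Mdm2, the ubiquitin ligase of p53, overlapped between groups, at 30.1, 28.6 and 40.2 FPKM in vehicle and 43.9, 39.5 and 62.1 FPKM in treated libraries (0.53 ± 0.26, adjusted p = 0.184). Cdkn1a, Perp, Phlda3, Psrc1 and Gdf15 changed in all 9 fits with 1 library left out, and in the fit with the length trend removed. The count of 15 became 8 without vehicle library 2, 9 without vehicle library 3, 8 without treated library 3 and 1 without treated libraries 2 and 3. It was 13 with the length trend removed.

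Of 7 tested cyclin-dependent kinase inhibitor genes, Cdkn1a, Cdkn2b and Cdkn2a rose. Cdkn2b, which encodes p15, stood at 28.2, 16.4 and 23.3 FPKM in vehicle, 29.1, 24.7 and 33.1 in bleomycin and 45.2, 51.6 and 56.9 in treated libraries (1.17 ± 0.23, adjusted p = 0.0113). Cdkn2a, whose locus encodes p16 and p19Arf, stood at 6.78, 3.12 and 4.56 FPKM in vehicle, 6.85, 4.67 and 4.26 in bleomycin and 9.58, 8.45 and 11.2 in treated libraries (0.93 ± 0.26, adjusted p = 0.044). For both genes the treated libraries lay above all vehicle and bleomycin libraries. Their differences from bleomycin, 0.80 ± 0.23 and 0.80 ± 0.26, did not pass (adjusted p = 0.203 for both, limma). Cdkn2b lost its call without vehicle library 2 (adjusted p = 0.0546) and Cdkn2a without any one of vehicle, bleomycin or treated libraries 2 and 3 (up to 0.187). With the length trend removed their adjusted p was 0.0545 and 0.302. Of the 3, 1 rose without vehicle library 2, 1 with the length trend removed and none without treated libraries 2 and 3. The list's median was 0.25, and -0.26 with the length trend removed.

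None of 22 tested mitotic genes passed, and 21 of them were below 0, with a median of -0.37. The proliferation marker Mki67 stood at 3.81, 1.55 and 2.06 FPKM in vehicle and 0.709, 0.231 and 0.209 FPKM in treated libraries (-1.29 ± 0.37, adjusted p = 0.0519), with no overlap. Mki67 passed the filter only through the vehicle group, in which it is high. Ube2c, the ubiquitin-conjugating enzyme of the anaphase-promoting complex, overlapped between groups (-0.36 ± 0.27, adjusted p = 0.375). The count below 0 was also 21 under median-of-ratios scaling, quantile normalization, conversion to TPM and removal of the length trend, which gave 3, 2, 0 and 3 falls. Of 20 tested genes of S phase entry and replication 3 rose (15%, against 8.24% of all genes) and none fell. Ccnd1, cyclin D1, went from 16.2, 13.9 and 16.6 to 60.3, 68.3 and 68.2 FPKM (2.01 ± 0.21, adjusted p = 0.000946) in a range of its own above vehicle, a call kept in all 9 fits with 1 library left out. Bleomycin libraries stood at 53.5, 78.5 and 81.8 FPKM for this gene. Ccnd1 shares 23.4% of its exon sequence with LTO1 on the opposite strand. Ccne1, cyclin E1, rose by 1.13 ± 0.24 and the transcription factor gene E2f1 by 0.76 ± 0.17 (adjusted p = 0.0166 and 0.0212). Both calls were lost without vehicle library 2 or 3 or treated library 3 (up to 0.0822 and 0.105), and that of E2f1 also with the length trend removed (0.109). The count was 1 without any one of those 3 libraries, 5 without treated library 1, 1 without treated libraries 2 and 3 and 2 with the length trend removed. No tested gene of the nuclear lamina and HMGB list (10) or of double-strand break repair (20) passed. Lmnb1, lamin B1, a protein often lost in senescence, stood at 6.57, 5.64 and 7.45 FPKM in vehicle and 4.14, 2.68 and 4.19 FPKM in treated libraries without overlap (-0.70 ± 0.21, adjusted p = 0.0567), and passed with the length trend removed (0.0157), when 2 genes of the lamina and HMGB list fell and no repair gene passed. Lmna differed by 0.74 ± 0.30 (adjusted p = 0.12) and the histone gene H2ax by 0.43 ± 0.30 (adjusted p = 0.341).

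Of 9 tested matrix metalloproteinase genes 5 rose, 4 did not pass and none fell (median 0.71). For bleomycin against the same vehicle libraries the list median was 0.72. Mmp13, the main collagenase of cartilage, stood at 122, 42.6 and 51.2 FPKM in vehicle, 530.2, 277 and 299 in bleomycin and 564, 145 and 318 in treated libraries (2.18 ± 0.51, adjusted p = 0.0237). The treated values spread widely, from library 2 to library 1, and all lay above vehicle. Mmp23 rose by 1.61 ± 0.21 and Mmp19 by 1.58 ± 0.22 (adjusted p = 0.00202 and 0.00256), both in all 9 fits with 1 library left out, and 28.3% of the exon bases of Mmp19 overlap Tmem198b, which runs the other way. Mmp13 lost its call without vehicle library 2 or 3 or treated library 3 (adjusted p up to 0.112), and the count of the list was then 3. Mmp13 also lost it with the length trend removed (0.0615), when 3 members rose. Without treated libraries 2 and 3, 4 rose. Of 9 aggrecanases, related proteases and their inhibitors, the aggrecanase gene Adamts5 rose, from 4.47, 6.66 and 7.27 to 19.8, 11.1 and 16.6 FPKM (1.22 ± 0.26, adjusted p = 0.0159), and so did the metalloproteinase inhibitor gene Timp2 (1.18 ± 0.19, adjusted p = 0.00573). Adamts12 fell by 1.21 ± 0.30 (adjusted p = 0.03). All treated libraries lay above vehicle for Adamts5 and Timp2, and below for Adamts12. Bleomycin differed from the same vehicle libraries by 1.81 ± 0.26 for Adamts5, 1.32 ± 0.19 for Timp2 and -0.72 ± 0.30 for Adamts12. Adamts5 lost its call without vehicle library 2 or treated library 3 (up to 0.0556), and Adamts12 without vehicle library 2 or 3 or treated library 2 or 3 (up to 0.133). Of this list 2 members rose and 1 fell with the length trend removed, and without treated libraries 2 and 3 none changed.

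Of 14 tested cytokine and chemokine genes, 5 rose and none fell, with a median of 0.61, and of 0.65 for bleomycin against the same vehicle libraries. Without Cxcl16, which passed the filter only through the treated group, 4 of 13 rose. Csf1, the growth factor of macrophages, went from 50.8, 36.9 and 40.9 to 112, 128 and 104 FPKM (1.40 ± 0.20, adjusted p = 0.00264). This call held in every fit with 1 library left out and with the length trend removed. Tnfrsf11b, the decoy receptor osteoprotegerin, rose by 1.30 ± 0.33 (adjusted p = 0.0316) and the chemokine gene Cxcl16 by 0.83 ± 0.15 (adjusted p = 0.00934), although Cxcl16 was under 0.5 FPKM in every vehicle library, passed the filter only through the treated group and shares 18.3% of its exons with Zmynd15 on the opposite strand. Both lost their calls without vehicle library 2 or 3 (up to 0.129 and 0.0548), Tnfrsf11b also without vehicle library 1 or treated library 3, and both with the length trend removed (0.0941 and 0.108). The count was 1 without vehicle library 2 or 3, 3 without bleomycin library 3, 2 without treated library 3, 1 without treated libraries 2 and 3, and 1 with the length trend removed. Il6 was below the filter, at 0.0597, 0 and 0 FPKM in vehicle and 0.0995, 0.0356 and 0.0379 FPKM in treated libraries.

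Of 25 tested growth factor genes 11 rose, 14 did not pass and none fell (median 0.66), and 3 rose with the length trend removed, under median-of-ratios scaling and under quantile normalization. Bmp6 and Pgf, 2 of the 11, passed the filter only through the treated group, and 9 of the other 23 rose. Pdgfc, a platelet-derived growth factor, went from 4.99, 5.2 and 4.5 to 20.5, 15.6 and 18.5 FPKM (1.70 ± 0.18, adjusted p = 0.000969) and Inhbb, the activin beta B subunit, from 0.629, 1.35 and 1.11 to 4.87, 4.64 and 6.25 FPKM (1.63 ± 0.20, adjusted p = 0.00141). These 2 calls held in all 9 fits with 1 library left out, and the groups did not overlap. Bleomycin differed from the same vehicle libraries by 1.90 ± 0.18 for Pdgfc and 2.05 ± 0.20 for Inhbb, with a list median of 0.68. Hbegf, a ligand of the EGF receptor, rose by 1.35 ± 0.27 (adjusted p = 0.0122), a call lost without vehicle library 2 or 3 (up to 0.0657). Without a single library the list's count was 2 (vehicle library 2 or 3), 4 (treated library 3), 5 (bleomycin library 3) or 6 (bleomycin library 1 or 2, or treated library 2), and it was 3 without treated libraries 2 and 3. Of 6 genes of the plasminogen system 3 rose, among them Serpine2, an inhibitor of thrombin and plasminogen activators (1.71 ± 0.22, adjusted p = 0.00209), and Plat, tissue plasminogen activator (1.30 ± 0.23, adjusted p = 0.00759). Among 6 WNT antagonists the rises were Sfrp2 (1.97 ± 0.25, adjusted p = 0.00202), Dkk3 (1.17 ± 0.22, adjusted p = 0.0104) and Sfrp4 (1.15 ± 0.30, adjusted p = 0.0364). Igfbp2, a carrier of insulin-like growth factors, was the 1 of 6 such genes to rise, from 3.79, 3.45 and 3.79 to 12.2, 14.8 and 24.1 FPKM (1.89 ± 0.24, adjusted p = 0.00176). Bleomycin differed from the same vehicle libraries by 1.96 ± 0.23 for Plat and 2.20 ± 0.24 for Igfbp2. Medians of the plasminogen, WNT antagonist and IGF-binding lists were 1.07, 1.82 and -0.06 with bleomycin. With bleomycin plus ST045849 they were 1.04, 1.04 and 0.34. Sfrp4 lost its call without vehicle library 2 or 3, bleomycin library 3 or treated library 3 (up to 0.152) and with the length trend removed (0.0775). A second IGF-binding gene rose without vehicle library 1 or treated library 2 (count 2). The counts with the length trend removed were 3 plasminogen genes, 2 WNT antagonists and 1 IGF-binding gene, and after conversion to TPM 1 WNT antagonist did. Sfrp2 shares 16.1% of its exons with Gm26771 on the opposite strand.

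Of 30 listed interferon-stimulated genes 18 passed the filter, of which 13 rose (background 8.24%) and none fell, and the median was 1.49. Bleomycin against the same vehicle libraries had a list median of 1.30. The members Ifi44, Ifit1, Ifit3b, Rtp4 and Usp18 were under 1 FPKM in all vehicle libraries and so passed only through the treated group, and all 5 are among the 13. Of the other 13 tested members 8 rose, with a median of 1.42. Isg15 had the largest difference. Xaf1, a proapoptotic protein induced by interferon, went from 1.08, 1.33 and 2.01 to 9.7, 17.7 and 8.36 FPKM (2.34 ± 0.28, adjusted p = 0.00141). Irf9, the DNA-binding subunit of the interferon-activated factor ISGF3, went from 3.83, 5.06 and 5.72 to 16.9, 21.1 and 14.9 FPKM (1.67 ± 0.20, adjusted p = 0.00154), and Bst2 from 6.3, 4.19 and 3.22 to 39, 106 and 24.5 FPKM (3.14 ± 0.57, adjusted p = 0.00822). Treated library 2 was the highest for these 3 genes, and no treated library overlapped vehicle, as the selection required for Bst2. In bleomycin libraries Isg15 was at 50.2, 27.2 and 9.46 FPKM, Irf9 at 12, 9.38 and 10.8 FPKM and Bst2 at 54.8, 24.7 and 11.4 FPKM. The bleomycin libraries had library 1 highest in each. Isg15, Xaf1, Irf9 and Bst2 changed in every fit with 1 library left out and with the length trend removed. The count of 13 became 7 without vehicle library 2 or 3, 3 without treated libraries 2 and 3, 8 with the length trend removed and 10 under quantile normalization.

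The promoters of Isg15, Bst2 and Ifit1 are shown because these risen genes hold the letters of the interferon response element close to their start. Ifit1, an RNA-binding interferon effector chosen after its values were seen, stood at 0.0527, 0.145 and 0.209 FPKM in vehicle and 5.38, 6.35 and 3.69 FPKM in treated libraries (2.41 ± 0.38, adjusted p = 0.00467). The sequences are the 250 bases before the transcription start from RefSeq, build GRCm38.p6, written 5′ to 3′ along the gene. Capitals mark every match to GAAANNGAAA on either strand.
Isg15 (chr4:156200819-156201068, minus strand): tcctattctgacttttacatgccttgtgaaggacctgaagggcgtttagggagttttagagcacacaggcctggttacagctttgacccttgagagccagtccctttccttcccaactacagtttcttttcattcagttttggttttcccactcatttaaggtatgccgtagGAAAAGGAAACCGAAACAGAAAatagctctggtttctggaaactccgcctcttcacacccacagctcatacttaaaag
Bst2 (chr8:71537473-71537722, minus strand): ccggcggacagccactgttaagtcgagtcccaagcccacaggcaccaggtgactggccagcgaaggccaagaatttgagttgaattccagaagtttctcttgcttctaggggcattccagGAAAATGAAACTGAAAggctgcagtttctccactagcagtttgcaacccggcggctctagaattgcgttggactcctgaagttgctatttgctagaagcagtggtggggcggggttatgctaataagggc
Ifit1 (chr19:34640639-34640888, plus strand): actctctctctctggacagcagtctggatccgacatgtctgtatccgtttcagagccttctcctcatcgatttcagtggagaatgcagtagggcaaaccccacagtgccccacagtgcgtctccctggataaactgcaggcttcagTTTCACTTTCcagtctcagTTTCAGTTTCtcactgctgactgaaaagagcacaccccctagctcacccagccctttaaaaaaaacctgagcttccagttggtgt
In Isg15 there are 3 overlapping matches, the nearest ending 57 bases before the start. Bst2 has 2 overlapping matches, the nearest ending 115 bases before the start, and Ifit1 has 2 separate matches on the opposite strand, the nearest ending 76 bases before it. Promoters of 250 bases before to 50 after the start were found for 13 of the 18 tested members, and 7 of these (53.8%) held the motif, against 3.42% of 9086 tested genes with a promoter and 3.44% of all 32851 promoters. Of the 7, Bst2, Ifit1, Ifit3b and Isg15 rose, and Ddx58, Ifit3 and Stat2 did not pass. Ifit1 and Ifit3b passed the filter only through the treated group. The list is one of genes known to respond to interferon, so its share with the motif does not bear on this comparison. A match describes letters and is not evidence of binding.

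Of 14 tested genes of antigen presentation by MHC class I 8 rose and none fell, with all 14 above 0 (median 1.18, and 0.83 for bleomycin against vehicle). Psmb8, 1 of the 8, passed the filter only through the treated group, and 7 of the other 13 rose. Tap1, the peptide transporter, went from 1.67, 1.49 and 1.31 to 5.36, 8.26 and 4.35 FPKM (1.45 ± 0.21, adjusted p = 0.00363), H2-T23 from 8.36, 7.63 and 6.23 to 25.9, 39.9 and 19 FPKM (1.74 ± 0.28, adjusted p = 0.00537) and H2-M3 from 2.33, 1.76 and 1.97 to 5.55, 7.25 and 5.54 FPKM (1.23 ± 0.21, adjusted p = 0.00605). The last 2 encode nonclassical class I molecules, and the class I genes are near-identical copies whose reads could be split in counting, so the values of single H2 genes are uncertain. No treated library overlapped vehicle for these 3 genes, and their calls held with each library left out. The adjusted p of H2-M3 was 0.0628 with the length trend removed, and 2 members rose then. The count was 3 without vehicle library 2, 5 without vehicle library 3 or treated library 2, and 2 without treated libraries 2 and 3. It was 5 under median-of-ratios scaling and quantile normalization. Of 12 tested complement genes 4 rose (33.3%), led by Masp1, a protease of the lectin pathway (1.73 ± 0.24, adjusted p = 0.00242), with Cd55, which protects cells from complement (1.30 ± 0.29, adjusted p = 0.0201), and Cfb, factor B (1.39 ± 0.31, adjusted p = 0.0201). Cfb shares 79.5% of its exons with Gm20547 on the same strand. Of 18 genes of NF-kB and its feedback 3 rose (16.7%, against 8.24% of all genes). Saa3, an acute-phase protein, went from 1.35, 0.548 and 0.435 to 6.12, 8.51 and 7.33 FPKM (2.25 ± 0.23, adjusted p = 0.000946), in every fit with 1 library left out. Icam1, an adhesion molecule whose exons overlap Gm47079 by 11.7% on the opposite strand, rose by 1.25 ± 0.24, and Tnfaip3, the NF-kB inhibitor A20, by 0.92 ± 0.21 (adjusted p = 0.0115 and 0.0226). Tnfaip3 was under 1 FPKM in all vehicle libraries and passed the filter only through the treated group, as did Nfkbie, which did not pass the test. Of the other 16 tested members 2 rose. Of 8 prostaglandin genes 3 rose: Ptges, which makes prostaglandin E2 (1.58 ± 0.26, adjusted p = 0.00537), Hpgd, which degrades it (1.51 ± 0.34, adjusted p = 0.022), and Ptgs1, cyclooxygenase 1 (0.83 ± 0.22, adjusted p = 0.041). Cd55 lost its call without vehicle library 2 or treated library 3 (up to 0.0894), Cfb without vehicle library 2 or 3 or treated library 2 (up to 0.0795), Icam1 without vehicle library 2 or 3 (up to 0.0624), Tnfaip3 and Hpgd without vehicle library 2 or 3 or treated library 3 (up to 0.107 and 0.0873), and Ptgs1 without any library but bleomycin library 3 (up to 0.158). Cfb, Hpgd and Ptgs1 also lost it with the length trend removed (0.0994, 0.152 and 0.151). The complement count was 1 without vehicle library 2 and 2 without vehicle library 3 or treated library 2 or 3. For prostaglandin genes it was 1 without vehicle library 2 or 3 or treated library 3, and for NF-kB genes 1 without vehicle library 2 or 3 and 5 without vehicle library 1. Removal of the length trend gave 2 complement genes, 1 prostaglandin gene and 3 NF-kB genes rising and 1 NF-kB gene falling. Without treated libraries 2 and 3 the counts that rose were 3, 1 and 1.

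**Figure D3:**
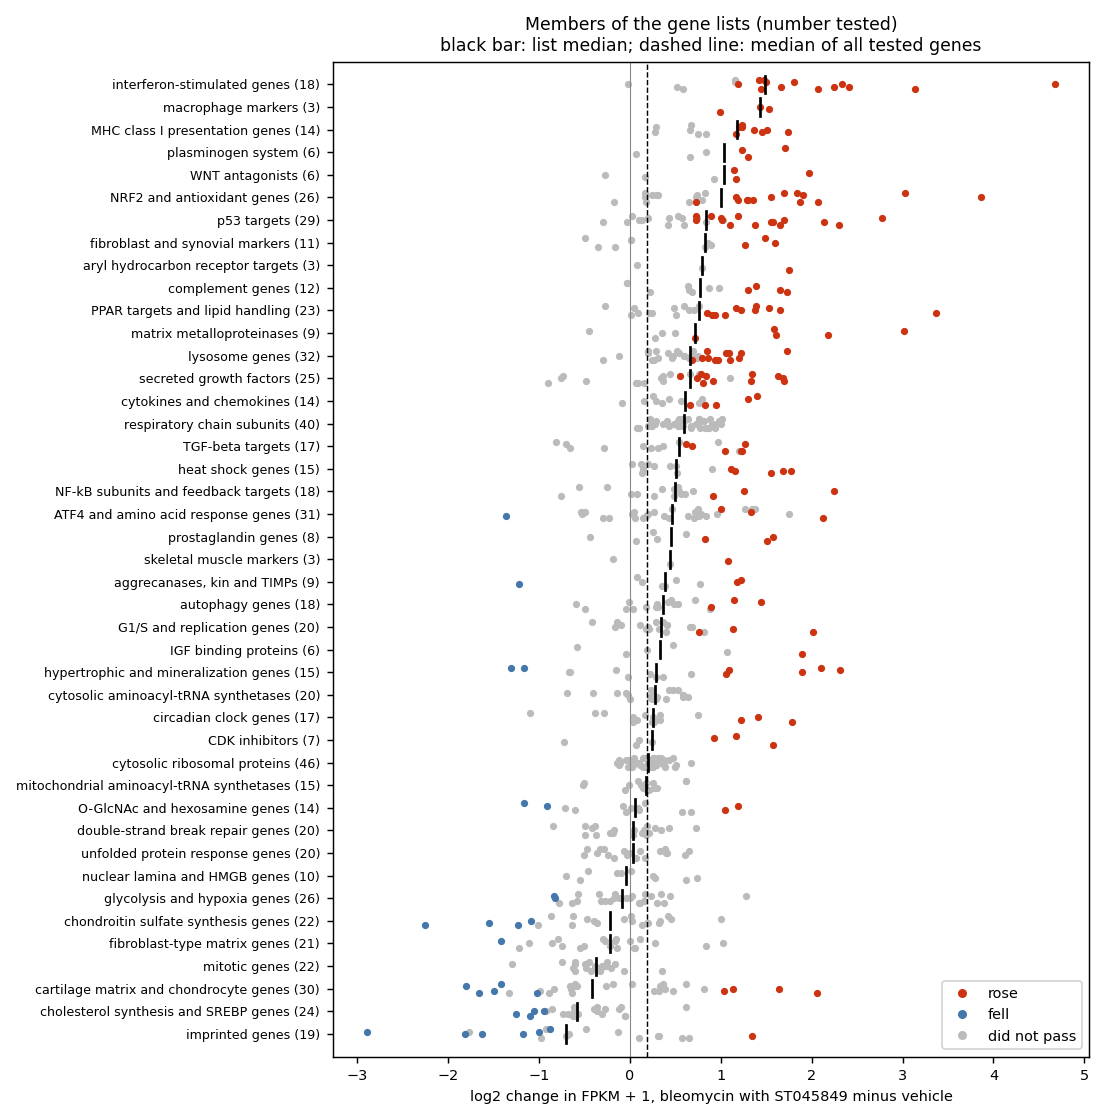
Log2 difference in FPKM + 1 between bleomycin plus ST045849 and vehicle for each tested member (points) of the 43 gene lists with 3 or more tested members, in order of the list median (black bars). Red members rose, blue fell and grey did not pass. The dashed line is the median of all tested genes, 0.19. Interferon-stimulated genes (1.49) and imprinted genes (-0.71) lie at the ends of this order. Without 5 members that passed the filter only through the treated group, the interferon median was 1.42. That is below the median of the 3 tested macrophage markers (1.43). With the length trend removed the median of imprinted genes was -0.54 and no longer the lowest.

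Of 26 tested genes of the antioxidant response controlled by NRF2 14 rose, 12 did not pass and none fell (background 8.24%, median 1.00 against 0.19). Besides Hmox1, these included glutathione transferases and the ferritin genes Fth1 (1.90 ± 0.30, adjusted p = 0.00452) and Ftl1 (1.84 ± 0.41, adjusted p = 0.0193), which lie outside the naming rule. Genes given here and below as outside that rule were chosen after their values were seen. Ftl1 shares 26.5% of its exons with Gm10252 on the opposite strand. Gsta4 went from 4.33, 3.22 and 3.36 to 17.9, 60.6 and 44.3 FPKM (3.02 ± 0.36, adjusted p = 0.00137) and Gstm1 from 17, 8.19 and 14.2 to 46.2, 81.1 and 47 FPKM (2.07 ± 0.31, adjusted p = 0.00376). Treated library 2 was again highest, and all treated libraries lay above vehicle, as the selection required for Gsta4. In bleomycin libraries Hmox1 stood at 87.2, 141 and 123 FPKM, Gsta4 at 8.57, 12 and 10.8 FPKM and Gstm1 at 27.4, 21.1 and 17.3 FPKM, each below all treated libraries. The differences of bleomycin from the same vehicle libraries were 1.57 ± 0.50, 1.30 ± 0.36 and 0.73 ± 0.31 (adjusted p = 0.111, 0.071 and 0.251). The list median of that comparison was 0.39. Between bleomycin plus ST045849 and bleomycin none of the 3 genes passed. Hmox1 differed there by 2.29 ± 0.50 and Gsta4 by 1.72 ± 0.36 (adjusted p = 0.203 for both, limma). Against vehicle, Hmox1, Gsta4 and Gstm1 kept their calls in all 9 fits with 1 library left out. The count was 8 without vehicle library 2, 9 without vehicle library 3 or treated library 2 or 3, and 3 without treated libraries 2 and 3. With the length trend removed it was 11. Txnrd1, thioredoxin reductase 1, rose by 0.73 ± 0.20 (adjusted p = 0.0432), and its promoter is shown because it holds the letters of an antioxidant response element. The element was searched as TGACNNNGC on either strand and is in capitals in the 250 bases before one of 3 RefSeq starts of the gene (GRCm38.p6).
Txnrd1 (chr10:82858956-82859205, plus strand): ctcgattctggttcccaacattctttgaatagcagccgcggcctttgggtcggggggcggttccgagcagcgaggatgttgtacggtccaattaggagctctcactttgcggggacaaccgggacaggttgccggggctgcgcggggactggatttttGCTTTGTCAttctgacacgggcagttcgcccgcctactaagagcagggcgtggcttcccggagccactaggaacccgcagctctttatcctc
The match ends 84 bases before the start. In the 300-base windows, 8 of 20 members with a promoter (40.0%) held the motif, against 16.95% of tested genes, and of the 8 Prdx1, Srxn1 and Txnrd1 rose. The share in a list of genes under NRF2 control does not bear on this comparison. Txnrd1 was chosen for display after its values were seen.

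Of 23 tested genes of fatty acid use under control of PPAR receptors 11 rose, 12 did not pass and none fell (median 0.77). The median was 0.26 for bleomycin against the same vehicle libraries. After Angptl4 the clearest were Pdk4, a kinase that shuts pyruvate out of oxidation, at 0.362, 0.373 and 0.216 FPKM in vehicle and 3.38, 2.02 and 3.12 FPKM in treated libraries (1.53 ± 0.18, adjusted p = 0.00118), and Cpt1a, which carries fatty acids into mitochondria, at 4.54, 3.73 and 3.75 and 13.7, 11.7 and 10.5 FPKM (1.37 ± 0.20, adjusted p = 0.00376). Pdk4 was under 1 FPKM in every vehicle library and passed the filter only through the treated group, as did Plin4, and 9 of the other 21 rose. Angptl4, Pdk4 and Cpt1a changed in every fit with 1 library left out and with the length trend removed. Angptl4 stood at 12, 7.05 and 11.1 FPKM in bleomycin libraries, of which library 2 lay below the highest vehicle library. The count was 5 without vehicle library 2, 6 without vehicle library 3 or treated library 2 or 3, and 3 without treated libraries 2 and 3, and 7 members rose with the length trend removed or under median-of-ratios scaling.

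Of 24 tested genes of cholesterol synthesis and its SREBP regulators 23 were below 0, 4 fell (background 1.76%) and none rose, with a median of -0.58. Srebf1, a member outside the naming rule that encodes a regulator of lipid synthesis, stood at 109, 55.9 and 60.1 FPKM in vehicle, 31.2, 27 and 25.3 in bleomycin and 48, 29.98 and 24.6 in treated libraries, and fell by 1.10 ± 0.30 (adjusted p = 0.0427). All treated libraries of Srebf1 lay below all vehicle libraries. With the length trend removed 10 members fell, and 8 did under quantile normalization or median-of-ratios scaling. Without vehicle library 2 or 3, treated library 2 or treated library 3 the count was 0, 0, 0 and 1. Without treated library 1 it was 9, and without treated libraries 2 and 3 it was 0.

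In energy metabolism the lists differed from each other. All 40 tested genes of respiratory chain subunits were above 0, with a median of 0.59 and none passing the test, but 35 were above 0 under median-of-ratios scaling, 31 under quantile normalization, 33 with the length trend removed and 22 with the length slope as a covariate. Their median exon length was 2037 bases. Cox6a1, the member with the highest mean, stood at 341, 213 and 241 FPKM in vehicle and 299, 653 and 593 FPKM in treated libraries (0.91 ± 0.32, adjusted p = 0.0888), and the groups overlapped. None of 46 cytosolic ribosomal protein genes passed. Of these 39 were above 0, but 20 under median-of-ratios scaling and 7 with the length trend removed, and the most abundant, Rplp1, differed by 0.33 ± 0.38 (adjusted p = 0.563). Of 26 glycolysis and hypoxia genes 2 fell (7.69%, against 1.76% of all genes), the aldolase gene Aldoc (-0.82 ± 0.19, adjusted p = 0.0233) and the lactate exporter gene Slc16a3 (-0.84 ± 0.23, adjusted p = 0.0471). Aldoc lost its call without vehicle library 2 or 3 or treated library 3 (up to 0.0779), and Slc16a3 without any library but treated library 1 (up to 0.161). The count was 0 without vehicle library 2 or 3 or treated library 3, and 1 without vehicle library 1, any one bleomycin library or treated library 2. It was 3 with the length trend removed and 0 without treated libraries 2 and 3. Among 31 tested genes of ATF4 and the amino acid response 3 rose (9.68%) and 1 fell (3.23%), near the 8.24% and 1.76% of all tested genes (median 0.46). The list had 1 rise and 1 fall with the length trend removed. Ddit4, an inhibitor of mTORC1, went from 30.3, 11.4 and 13.1 to 52, 104 and 81.5 FPKM (2.13 ± 0.35, adjusted p = 0.00573), in every fit with 1 library left out. Asns, asparagine synthetase, stood at 116, 55.7 and 94.5 FPKM in vehicle, 44.7, 52 and 59.5 in bleomycin and 94.6, 206 and 162 in treated libraries (0.78 ± 0.33, adjusted p = 0.137), so that treated library 1 lay within the vehicle range and libraries 2 and 3 above it. The list's median was -0.53 for bleomycin against the same vehicle libraries. Aldh1l2, of mitochondrial folate metabolism, fell by 1.37 ± 0.26 (adjusted p = 0.00966, and 0.052 without vehicle library 3). Sesn2, a stress-induced regulator of mTORC1, rose by 1.01 ± 0.27 and the transcription factor gene Atf3, whose groups overlapped, by 1.33 ± 0.38 (adjusted p = 0.0388 and 0.0493). Both lost the call without vehicle, bleomycin or treated library 2 or 3, Atf3 also without bleomycin library 1 (up to 0.169 and 0.198), and with the length trend removed (0.0794 and 0.0966). Without treated library 1, 13 members rose and 2 fell, and without vehicle library 1, 6 rose. Without library 2 or library 3 of any of the 3 groups, 1 rose, and without treated libraries 2 and 3 none changed. Of 20 cytosolic and 15 mitochondrial aminoacyl-tRNA synthetase genes none passed, with Gars at 0.30 ± 0.27 and Rars2 at 0.09 ± 0.25 (adjusted p = 0.46 and 0.814).

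Of 32 tested lysosomal genes 12 rose, 20 did not pass and none fell, with 30 above 0 and a median of 0.66. The median was 0.38 for bleomycin against the same vehicle libraries. The protease gene Ctsf went from 17.6, 21.2 and 15.2 to 61.7, 70.7 and 53.5 FPKM (1.73 ± 0.20, adjusted p = 0.00137) and Gla, alpha-galactosidase A, from 3.61, 3.34 and 2.94 to 7.83, 10.03 and 8.97 FPKM (1.21 ± 0.18, adjusted p = 0.00368). Ctsz, another cathepsin, rose by 1.23 ± 0.21 (adjusted p = 0.00632), and the groups of all 3 genes were apart in every library. The count was 4 without vehicle library 2 or 3, 6 without treated library 2 or 3, 1 without treated libraries 2 and 3, 9 with the length trend removed and 5 under median-of-ratios scaling or quantile normalization, while Ctsf, Gla and Ctsz kept their calls with any 1 library left out. Of 18 autophagy genes 3 rose (16.7%, against 8.24% of all genes): Gabarapl1 (1.45 ± 0.22, adjusted p = 0.00376) and Map1lc3b (0.89 ± 0.21, adjusted p = 0.0252), which encode proteins of the autophagosome membrane, and the cargo receptor gene Sqstm1 (1.15 ± 0.29, adjusted p = 0.0308). Gabarapl1 shares 28.3% of its exons with 1700101I11Rik and Sqstm1 17.3% with Mrnip, both on the opposite strand. The calls of Map1lc3b and Sqstm1 were lost without vehicle library 2 or 3 or treated library 2 or 3 (up to 0.113 and 0.129), and that of Sqstm1 also without bleomycin library 3 and with the length trend removed (0.063). The autophagy count was 1 without any one of those 4 vehicle and treated libraries, 5 without vehicle or treated library 1, 2 with the length trend removed, 1 under median-of-ratios scaling and 1 without treated libraries 2 and 3. Of 15 tested heat shock genes 5 rose and 10 did not pass, and 5 also rose with the length trend removed and under each other scaling. Without Hspa1a, which passed the filter only through the treated group, 4 of 14 rose. Cryab, alpha-B-crystallin, went from 21.6, 16.7 and 13.1 to 38.3, 74.8 and 73.9 FPKM (1.77 ± 0.28, adjusted p = 0.0046), and Hspb8 from 19, 8.54 and 9.04 to 39.1, 45.4 and 33.4 FPKM (1.69 ± 0.28, adjusted p = 0.00561). Hspa1a, an inducible HSP70, was under 1 FPKM in vehicle, passed the filter only through the treated group and rose by 1.16 ± 0.20 (adjusted p = 0.00648). These 3 small and inducible chaperone genes changed in every fit with 1 library left out, Cryab shares 17% of its exons with Hspb2 and Hspa1a 19% with Gm20481 on the opposite strand, and Hspa1a has a near-identical copy in Hspa1b. The count of the list was 3 without vehicle library 2 and 0 without treated libraries 2 and 3. None of 20 genes of the unfolded protein response passed, and 1 fell with the length trend removed. Its most abundant member, Calr, differed by 0.07 ± 0.22 (adjusted p = 0.856).

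Cartilage genes moved in both directions. Of 30 tested matrix and chondrocyte genes 5 fell (background 1.76%), 4 rose (background 8.24%) and 21 did not pass, with a median of -0.42. Acan, the core protein of aggrecan (chromosome 7, 79053483 to 79115099), stood at 1023, 1508 and 1294 FPKM in vehicle, 619, 693 and 546 in bleomycin and 558, 384 and 292 in treated libraries, and fell by 1.66 ± 0.28 (adjusted p = 0.00632). Col27a1, a fibrillar collagen of cartilage, went from 184, 311 and 208 to 128, 55.9 and 72.1 FPKM (-1.50 ± 0.32, adjusted p = 0.0168). All treated libraries lay below vehicle for Acan, Matn3 and Col27a1, as the selection required for Matn3. The other 2 that fell, outside the naming rule, were the type XI collagen genes Col11a1 (-1.42 ± 0.38, adjusted p = 0.0388) and Col11a2 (-1.02 ± 0.28, adjusted p = 0.042). Col2a1, the type II collagen gene, stood at 19450, 24070 and 16340 FPKM in vehicle and 14290, 14700 and 9477 FPKM in treated libraries (-0.65 ± 0.35, adjusted p = 0.224), and Sox9, the transcription factor of chondrocytes, at 72.9, 88 and 110.3 and 69.5, 32.4 and 53.3 FPKM (-0.84 ± 0.28, adjusted p = 0.0759). Neither passed, although neither group overlapped the other. Sox9 passed with the length trend removed (adjusted p = 0.0423).

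The cartilage genes that rose encode secreted proteins other than the main collagens. Prg4, the lubricin of the joint surface, went from 14.4, 9.5 and 14.9 to 41.6, 40.4 and 43.4 FPKM (1.64 ± 0.23, adjusted p = 0.00306) and was at 51.2, 37.7 and 62.1 FPKM in bleomycin libraries. Mia, a small secreted protein of cartilage, went from 39.4, 35.2 and 24.3 to 106, 230.3 and 107 FPKM (2.06 ± 0.41, adjusted p = 0.0122), with 41.2% of its exons shared with Gm21983 on the same strand, and Cytl1, a cytokine-like protein, from 7.57, 14.2 and 11.5 to 23.7, 25 and 25.6 FPKM (1.13 ± 0.23, adjusted p = 0.0145). Prelp, a leucine-rich matrix protein outside the naming rule, rose by 1.04 ± 0.23 (adjusted p = 0.0208). No treated library of these 4 genes was within the vehicle range. Acan and Prg4 kept their calls with each library left out. Mia and Cytl1 lost theirs without vehicle library 3 (adjusted p = 0.0594 and 0.052), and Col27a1 without vehicle library 2 or 3 or treated library 2 or 3 (up to 0.083). Without vehicle library 2, 1 member fell, and without vehicle library 3 or treated library 2 or 3, 2 did. Without any one bleomycin library 3 fell, and without vehicle library 1 or treated library 1 it was 8 and 9. Without vehicle library 3, 1 rose, and without treated libraries 2 and 3 none changed. With the length trend removed 6 fell and 2 rose, and Cytl1 was not among the latter (adjusted p = 0.225).

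**Figure D4:**
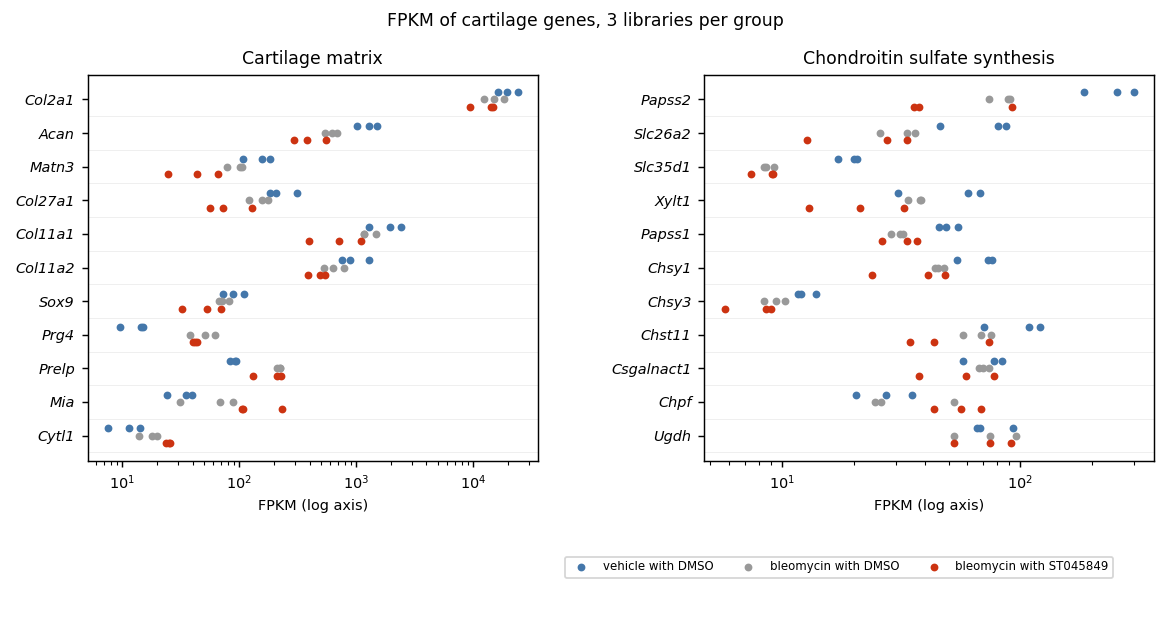
FPKM (log axis) of genes of cartilage matrix (left) and of chondroitin sulfate synthesis (right) in the 3 vehicle (blue), 3 bleomycin (grey) and 3 bleomycin plus ST045849 libraries (red). Papss2 lies at 185 to 299 FPKM in vehicle and 35.9 to 92.1 FPKM in treated libraries, and Prg4 lies in the opposite order.

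Of 22 tested genes of chondroitin sulfate synthesis, which builds the sulfated chains of aggrecan, 4 fell (18.2%, background 1.76%), none rose and 18 did not pass, and the median was -0.21. Besides Papss2, these were Slc26a2, the sulfate transporter mutated in chondrodysplasias, at 46, 80.3 and 87.1 FPKM in vehicle and 33.3, 12.8 and 27.6 FPKM in treated libraries (-1.55 ± 0.35, adjusted p = 0.0216), and Slc35d1, the nucleotide sugar transporter of the Golgi and endoplasmic reticulum, at 17.2, 20.1 and 20.6 and 9.24, 7.42 and 9.12 FPKM (-1.08 ± 0.17, adjusted p = 0.00511). The fourth, Xylt1, which starts the chains and lies outside the naming rule, fell by 1.23 ± 0.34 (adjusted p = 0.0469), with vehicle library 1 below treated library 1. In bleomycin libraries Papss2 was at 90.6, 88.9 and 74.2 FPKM and Slc35d1 at 8.43, 8.57 and 9.24 FPKM, below all vehicle libraries. Papss2 and Slc35d1 kept their calls with each library left out. Slc26a2 lost its call without vehicle library 2 or 3 or treated library 2 (up to 0.0951). The count was 2 without vehicle library 2 or 3 or treated library 2, 8 without treated library 1 or with the length trend removed, and 0 without treated libraries 2 and 3.

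Genes of hypertrophy and mineralization split. Of 15 tested, 5 rose and 2 fell (median 0.29). The osteocalcin gene Bglap2 stood at 0.0886, 0 and 0 FPKM in vehicle and 3.77, 4.35 and 4.23 FPKM in treated libraries (2.31 ± 0.15, adjusted p = 0.000113), and its near-identical neighbour Bglap at 0.412, 0 and 0 and 3.3, 3.9 and 2.44 FPKM (1.89 ± 0.21, adjusted p = 0.00113). Both were under 1 FPKM in all vehicle libraries, so that they passed the filter only through the treated group, and reads could be split between the copies. Of the other 13 tested members 3 rose and 2 fell. Spp1, osteopontin, went from 543, 240 and 274 to 1569, 1192 and 1525 FPKM (2.10 ± 0.33, adjusted p = 0.00439), with 18.8% of its exons shared with Gm42793 on the same strand. Col10a1, the collagen of hypertrophic cartilage, went from 48.8, 70.3 and 55.2 to 19.4, 18.3 and 32.8 FPKM and fell by 1.30 ± 0.28 (adjusted p = 0.0174), and Panx3, a channel protein of hypertrophic cells, fell by 1.16 ± 0.31 (adjusted p = 0.0411). The rise of Spp1 held in every fit with 1 library left out and with the length trend removed. Those of Bglap2 and Bglap did too, but the filter admitted these 2 genes only through the group where they are high. Col10a1 lost its call without vehicle library 2 or 3 or treated library 2 (up to 0.0866), and Panx3 without any library but bleomycin libraries 1 and 3 (up to 0.145). The count of falls was 0 without vehicle library 2 or 3 or treated library 2, and 1 without vehicle library 1, bleomycin library 2 or treated library 3. Without treated libraries 2 and 3, 3 rose and none fell, and with the length trend removed 4 rose and 2 fell. Of 21 fibroblast-type matrix genes 1 fell, Fbn1, the microfibril protein fibrillin 1 (-1.41 ± 0.31, adjusted p = 0.018, lost without vehicle library 2 or 3 or treated library 2 or 3 at up to 0.0898), and none rose. Without treated library 1, 7 of these genes fell, and without vehicle library 1, 2 did. The count was also 1 with the length trend removed. Fbn1 shares 20.1% of its exons with Gm9913 on the opposite strand. Of 17 TGF-beta target genes 6 rose (35.3%, against 8.24% of all genes) and none fell, among them Bhlhe40, a transcriptional repressor (1.23 ± 0.25, adjusted p = 0.0144), and Id1, an inhibitor of bHLH factors (1.27 ± 0.28, adjusted p = 0.0189). The count was 0 without vehicle library 2 or 3, 2 without treated library 2, 1 without treated library 3 and 0 without treated libraries 2 and 3, and 4 rose and 1 fell with the length trend removed. Bhlhe40 lost its call without vehicle library 2 or 3 or treated library 3 (up to 0.0779), and Id1 without vehicle library 2 or 3 or treated library 2 or 3 (up to 0.0929).

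Markers of other cell types were low apart from fibroblast genes, and their part in these results was not tested. Of 14 macrophage markers the 3 that passed the filter rose: Lyz2, lysozyme (1.65, 1.22 and 0.711 to 4.07, 4.89 and 5.65 FPKM, 1.43 ± 0.20, adjusted p = 0.00243), the lysosomal glycoprotein gene Cd68 (1.53 ± 0.30, adjusted p = 0.0127) and the lipopolysaccharide coreceptor gene Cd14 (0.99 ± 0.20, adjusted p = 0.0139). The list summed to 3.33 to 6.13 FPKM in vehicle and 12.5 to 18.5 FPKM in treated libraries, while Tyrobp, C1qb and C1qc had values of 0 in every treated library and Ptprc did not exceed 0.02 FPKM. The count was 2 with the length trend removed, 0 without treated libraries 2 and 3 and 1 without vehicle library 2 or 3, with adjusted p up to 0.07 for Cd68 and 0.0779 for Cd14. Of 11 tested fibroblast and synovial markers 3 rose, Cd34 (7.49, 6.76 and 8.53 to 20.1, 20.3 and 18.4 FPKM, 1.26 ± 0.17, adjusted p = 0.00223), S100a4 (1.59 ± 0.39, adjusted p = 0.0295) and Thy1 (1.49 ± 0.37, adjusted p = 0.0301). Of the 11, 8 were above 0 and 3 below, and 8 did not pass. Acta2 (114, 69.5 and 91.7 to 59.1, 73.5 and 80.4 FPKM) and Pdgfra (26.1, 39.5 and 33.1 to 52.3, 10.4 and 21.3 FPKM) overlapped between groups. The list summed to 746 to 1532 FPKM in vehicle and 1301 to 2351 FPKM in treated libraries. The largest part was Vim, at 1015, 423 and 623 FPKM in vehicle and 764, 1262 and 1565 FPKM in treated libraries. Cd34 kept its call with each library left out. S100a4, which shares 51.7% of its exons with Gm42674 on the same strand, lost it without vehicle library 2 or 3 or treated library 2 or 3, and Thy1 without vehicle library 2 or 3 or treated library 2 (up to 0.133 and 0.136). The count was 1 without vehicle library 2 or 3 or treated library 2, 5 without treated library 1 and 1 without treated libraries 2 and 3, and 2 rose and 1 fell with the length trend removed. No endothelial or erythroid marker passed the filter, and the endothelial list summed to at most 0.795 FPKM in a treated library. Of 3 tested skeletal muscle markers Des, desmin, rose by 1.08 ± 0.29 (adjusted p = 0.0427), a call lost without any library but vehicle library 1 and treated library 1 (up to 0.153) and with the length trend removed. Neither of 2 tested osteoclast markers passed, with Acp5, the tartrate-resistant acid phosphatase, at 0.56 ± 0.28 (adjusted p = 0.198).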

How the data were processed

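RNA was extracted with TRI reagent and made into libraries with a stranded mRNA kit, per the labels' protocols. The deposited values are FPKM per gene, computed by the authors from reads processed with Trimmomatic and STAR on GRCm38, per the submitters' processing notes. Not given in the sources used here are the versions, the annotation, the FPKM denominator and the use of strand. Read counts were not used here, so the absolute depth is unknown. Genes that reached 1 FPKM in 3 or more of the 6 compared libraries were tested on log2(FPKM + 1) with limma 3.58.1 (R 4.3.3, variance trend, two-sided, Benjamini-Hochberg over 12019 genes, threshold 0.05) in 1 model of all 9 libraries, which shares 1 estimate of the spread. In simulated data the test recovered 46% of 2-fold and 90% of 4-fold changes (100 genes each, 12019 tested), with 7 false calls. The simulated noise was independent between genes, and the changed genes were taken from the more strongly expressed ones. Effects shared by the genes of a library, such as the length slopes, were absent, so these rates need not hold for the real libraries. Exon lengths, positions and overlaps came from a GENCODE annotation of GRCm38 that held 99.5% of the IDs, and promoters from RefSeq. The length trend was removed per library by loess on log2 exon length (span 0.5). Figures used Python 3.11.15 and matplotlib 3.10.9. Genes named were the 12 largest rises and falls without group overlap, up to 3 members per list and direction by adjusted p (or the most abundant member where none changed), and 18 fixed genes. A few named genes are not reported here, and stay in the counts and medians of their lists. Members and lists were chosen with earlier results of these data known. The 46 lists hold 895 symbols, all of them in the files. Besides leaving out each library, 16 other settings were run, and 2 were added after seeing the data: leaving out treated libraries 2 and 3 together, and each library's length slope as a covariate.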

Additional observations from a re-analysis of the deposited data

How the results depend on the processing

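Of 119 named genes that changed, 64 did so in all 9 fits with 1 library left out, 98 with the length trend removed, 62 with the length slope as a covariate, 104 under quantile normalization, 99 as TPM, 98 in the 6 libraries alone and 40 without treated libraries 2 and 3, and none reversed. With 1 library left out, 317 to 3009 genes were called, 280 to 2240 higher and 37 to 769 lower. Called, higher and lower genes numbered 651, 562 and 89 with no filter, 641, 544 and 97 at a mean of at least 5 FPKM, 625, 493 and 132 in the 6 libraries alone, 2696, 2065 and 631 with array weights, 640, 518 and 122 at 2-fold or more, 792, 467 and 325 with the length trend removed, 335, 289 and 46 with the length slope as a covariate, and 146, 136 and 10 without treated libraries 2 and 3. Median-of-ratios scaling gave 480 higher and 400 lower, quantile normalization 549 and 342, and TPM 714 called with 493 higher. Pseudocounts of 0.1 and 0.5, the filter over all 9 libraries and the robust variance prior moved none of these counts by more than 1.5 times. Causes of these shifts were not tested, except that fewer libraries or tested genes follow from the settings themselves.

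Between treated and vehicle libraries, deviations from the group mean did not go together throughout at equal replicate numbers (correlations -0.53, -0.284 and 0.424). These deviations carry the length slopes of the libraries, and bleomycin libraries were not compared in this way. The correlations therefore cannot settle whether libraries of equal number are paired. The replicate block gave 1325 genes in 9 libraries and 208 (182 higher, 26 lower) in 6, and with the length trend removed 1176, of which 507 were lower.

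6 named genes, none called, changed sign. H2ax was at -0.10 with the length trend removed, with and without the replicate block, -0.13 without treated libraries 2 and 3 and -0.16 with the length covariate. In the same order Gars was at -0.028, -0.10 and -0.22, and -0.10 under quantile normalization, and Rplp1 at -0.13, -0.22 and -0.44, and -0.045 under quantile normalization. Rars2 was at -0.13, -0.078 and -0.15 under median-of-ratios scaling, quantile normalization and TPM, -0.28 with the length trend removed, with and without the block, -0.098 to 0.25 with 1 library left out, -0.21 without treated libraries 2 and 3 and -0.19 with the covariate. Calr was at -0.18, -0.23 and -0.19 under those 3 scalings, -0.29 with the length trend removed, with and without the block, -0.042 to 0.16 with 1 library left out and -0.038 with the covariate. Oga was at 0.053 with the length trend removed, with and without the block, -0.28 to 0.18 with 1 library left out, 0.019 without treated libraries 2 and 3 and 0.20 with the covariate. In simulated data without effects shared by the genes of a library, 46% of 2-fold changes were recovered. Smaller changes may therefore be missed at this number of libraries, at a rate not known for these data.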

Other observations

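Imprinted genes had the lowest list median, -0.71 against 0.19 for all tested genes, with 6 of 19 falling (31.6%, against 1.76% of all tested genes) and 1 rising. Meg3, a maternally expressed noncoding RNA, stood at 354, 406 and 344 FPKM in vehicle, 249, 126 and 172 in bleomycin and 121, 119 and 116 in bleomycin plus ST045849 libraries 1 to 3 (-1.62 ± 0.25, adjusted p = 0.00452, limma). All treated libraries lay below all others, but the difference from bleomycin did not pass. Usp29, a paternally expressed gene beside Peg3, fell by 1.18 ± 0.21 (adjusted p = 0.00816) and shares 14.3% of its exons with Zim3 on the opposite strand. H19 and Rian, 2 further noncoding RNAs outside the naming rule, fell by 1.00 ± 0.27 and 0.88 ± 0.24 (adjusted p = 0.0422 and 0.044). Snrpn rose by 1.35 ± 0.23 (adjusted p = 0.00632), with 27.3% of its exons shared with Gm38393 on the same strand. Meg3, Usp29 and Snrpn kept their calls with each library left out and with the length trend removed. The number that fell was 2 without vehicle library 2 or 3 or treated library 2, 3 without bleomycin library 3 or treated library 3, 0 without treated libraries 2 and 3, and 5 with the length trend removed, when 2 rose. The median exon length of the list was 7292 bases, against 4255 for all tested genes. The list median stayed the lowest under median-of-ratios scaling (-0.94), quantile normalization (-1.02) and TPM (-0.97). With the length trend removed it was -0.54, above those of cholesterol synthesis (-0.72) and mitotic genes (-0.56). With the length slope as a covariate it was -0.18, and cytosolic ribosomal proteins were at -0.50.

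Of 17 tested genes of the circadian clock 3 rose (17.6%, against 8.24% of all tested genes) and none fell. The count was also 3 under each scaling tried and with the length trend removed, and 1 without treated libraries 2 and 3. The nuclear receptor gene Nr1d1, a repressor of the clock, stood at 4.67, 3.72 and 4.25 FPKM in vehicle, 18, 16.9 and 13.1 in bleomycin and 18.2, 22.5 and 11.8 in treated libraries (1.79 ± 0.24, adjusted p = 0.00227). Dbp, a clock output factor, rose by 1.41 ± 0.22 (adjusted p = 0.00464), with 18% of its exons shared with Sphk2 on the opposite strand, and the third was Bhlhe40. Nr1d1 and Dbp changed in every fit with 1 library left out, and no treated library overlapped vehicle. Cyp1b1, an aryl hydrocarbon receptor target that oxidizes steroids and polycyclic compounds, went from 13.9, 23.4 and 29 to 71.1, 60.6 and 92.9 FPKM (1.75 ± 0.28, adjusted p = 0.00537), as 1 of 3 tested genes of that list. Its bleomycin libraries stood at 56.3, 55.8 and 80.4 FPKM, above all vehicle libraries, and its call held with each library left out. The count of that list was 2 without vehicle library 1 or treated library 1, 1 with the length trend removed and 0 without treated libraries 2 and 3.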
